A study of Mus musculus with 5 samples.

Results

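Toll-like receptors and the proteins that place them in the cell or carry their signal were followed through a study of Ikaros mutant mouse bone marrow. The members were 8 genes, chosen by gene symbol: the receptors Tlr2, Tlr3, Tlr4, Tlr7 and Tlr9, the chaperone Unc93b1 and the adaptors Myd88 and Ticam1. They took 9 transcript rows of 26531 in the table, because Unc93b1 had 2 (NM_001161428 and NM_019449). RNA came from 5 libraries of cells sorted as Hardy fraction A, an early stage of B cell development, from marrow that was not lineage depleted. Of these, 2 came from mice carrying an Ikaros zinc finger 1 mutation on both alleles (Ikaros_ZnF1-/-, here dF1), 1 from mice carrying a zinc finger 4 mutation on both alleles (Ikaros_ZnF4-/-, here dF4) and 2 from wild-type mice (wt). All mice were of the C57BL/6 strain and 6 to 7 weeks old. The dF1 libraries are described as biological replicates, and the dF4 library is single and of low coverage. No label tells if the wt libraries are from different mice, and p-values therefore reflect only the variation among these libraries, which in wt may be technical.

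Toll-like receptors are membrane proteins that recognise molecules shared by many microbes. Tlr2 and Tlr4 sit at the cell surface and bind bacterial lipoproteins and lipopolysaccharide. Tlr3, Tlr7 and Tlr9 sit in endosomes and bind double-stranded RNA, single-stranded RNA and unmethylated CpG DNA, and they reach the endosome only when carried there by Unc93b1. Myd88 is the adaptor of every one of these receptors except Tlr3, which uses Ticam1 (also called TRIF), an adaptor that Tlr4 uses as well. Among blood cells, Tlr7 and Tlr9 are characteristic of plasmacytoid dendritic cells (pDCs) and B cells, and Tlr2 and Tlr4 of neutrophils and monocytes.

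Upstream sequence is shown for the 3 tested members whose dF1 libraries both lay above both wt libraries. Promoter sequence of 5 of the 8 genes was matched by symbol in RefSeq's GRCm38.p6 table, and 250 bases before the start were searched on both strands for TGGGAA, the core bound by Ikaros, for GAGGAA, the core bound by the ETS factor PU.1, and for an interferon response element (GAAA, any 2 bases, GAAA). The motifs do not overlap one another in these windows. Capitals mark the matches. For Tlr2, 30 bases around its match are given, for Tlr9 and Myd88 all 250 bases.
Tlr2, chr3:83841758-83841787, minus strand: acacctggggaaTTCCCAcacggagcctct
Tlr9, chr9:106222348-106222597, plus strand: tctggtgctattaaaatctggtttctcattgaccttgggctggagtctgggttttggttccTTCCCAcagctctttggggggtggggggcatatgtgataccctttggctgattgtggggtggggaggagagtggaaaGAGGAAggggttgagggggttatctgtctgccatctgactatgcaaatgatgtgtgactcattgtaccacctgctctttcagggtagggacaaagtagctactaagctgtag
Myd88, chr9:119340019-119340268, minus strand: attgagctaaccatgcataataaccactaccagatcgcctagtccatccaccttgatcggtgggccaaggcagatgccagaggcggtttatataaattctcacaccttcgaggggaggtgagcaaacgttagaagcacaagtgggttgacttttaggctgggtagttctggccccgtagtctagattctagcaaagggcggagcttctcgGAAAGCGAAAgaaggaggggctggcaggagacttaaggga
Tlr2 and Tlr9 each held TGGGAA on the reverse strand (written TTCCCA), Tlr9 also held GAGGAA, and Myd88 held the interferon element. Of 32851 promoter windows, 21.6% held TGGGAA, 23.3% GAGGAA and 3.0% the interferon element. Ticam1 held GAGGAA 30 bases before its start and the Tlr3 window held none of these letters. These matches describe the letters only.

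Levels are given as RPKM, a read count corrected for transcript length and library total, and can be compared between transcripts. The summed RPKM was 298855 and 307910 in dF1, 345446 in dF4 and 306100 and 286080 in wt. Steps between low dF4 values put that library at about 597000 reads, and its intervals are exact 95% Poisson intervals that cover counting error only. The depth of the other libraries is unknown. Although labelled as pro-B cells, the wt libraries held more RNA of the pDC lectin Siglech (936.2 and 838.4 RPKM) than of Igll1 (88.3 and 40.3 RPKM), a component of the surrogate light chain of early B cells. Igll1 was not the highest pro-B marker, as Dntt was at 238.9 and 152.5 RPKM in wt. Summed in wt, 10 pDC markers came to 3303 and 3784 RPKM and 11 pro-B markers to 633 and 392.1 RPKM. Sex also differed, since Xist was at 93.2 RPKM in dF1 replicate 1 and 77.7 and 83 RPKM in wt but listed at 0 in dF1 replicate 2 and dF4. None of the 8 markers used to define cell types was listed at 0 in any library. In a sorted bulk sample, fewer cells of a type and less RNA per cell cannot be told apart.

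In wt cells Tlr7, Tlr9 and their chaperone far outranked the surface receptors Tlr2 and Tlr4. Unc93b1 NM_001161428 led at 434 ± 72.7 RPKM (SD, n = 2), in place 41 of all transcripts by wt mean. Tlr9 followed at 80.8 ± 6.29 RPKM, Tlr7 at 56.3 ± 7.64, Myd88 at 45.2 ± 0.566, Unc93b1 NM_019449 at 36.6 ± 10.8 and Ticam1 at 13.5 ± 1.34 (SD, n = 2 each). Tlr2 was at 5.5 ± 0.424 RPKM, Tlr4 at 1.95 ± 0.636, and Tlr3 was close to absent at 0.1 RPKM in both wt libraries. Each neighbouring pair in this order was separated by more than its replicate SDs, except that Myd88 and Unc93b1 NM_019449 lay closer together than the SD of the chaperone. The dF1 means gave the same order, although in dF1 replicate 2 Unc93b1 NM_019449 (48.9 RPKM) was marginally above Myd88 (48.6 RPKM). The dF4 library placed Tlr7 between Tlr4 and Tlr3, near the bottom.

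**Figure D1:**
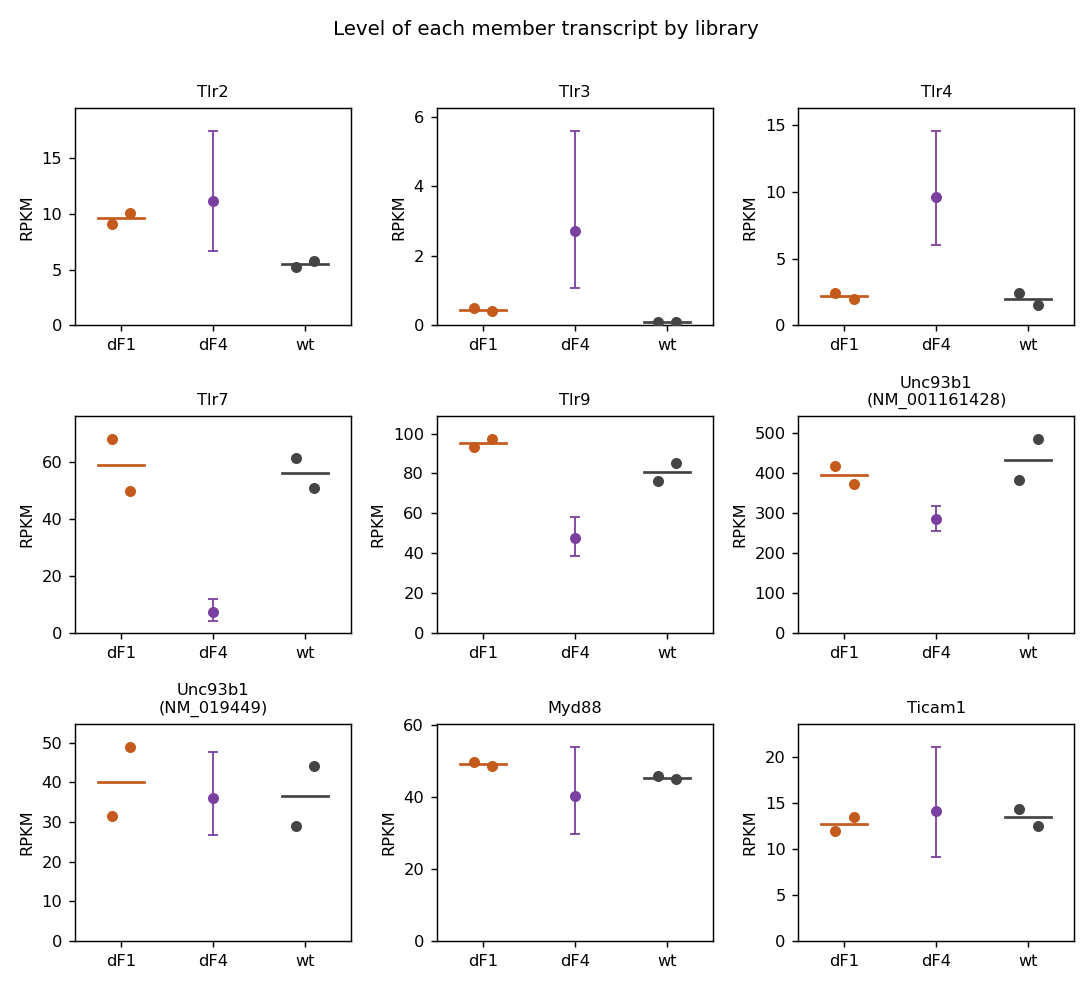
Level of each member transcript, in RPKM on a linear axis from 0, by library: dF1 (2 points), dF4 (1 point with its 95% Poisson interval) and wt (2 points), with horizontal lines at the mean of 2 libraries. Tlr7 stands at 7.6 RPKM in dF4 and at 49.9 RPKM or more in the others, while both dF1 points of Tlr2 lie above both wt points.

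Tlr9, the receptor for CpG DNA, was the highest of the receptors in every library. It was at 93.1 and 97.2 RPKM in dF1, at 47.8 RPKM in dF4 (95% interval 38.8 to 58.2, about 99 reads) and at 76.3 and 85.2 RPKM in wt. The dF1 libraries were thus both above the wt libraries, and the dF4 library was below all 4 others. The dF1 difference did not pass (log2 fold change 0.24, SE 0.12, 95% interval -0.07 to 0.54, limma adjusted p = 0.755). The dF4 value was 1.69-fold below the wt mean and 1.99-fold below the dF1 mean of 95.2 ± 2.9 RPKM (SD, n = 2).

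Tlr7, the receptor for single-stranded RNA, behaved differently from Tlr9 in the dF4 library. It was at 68.2 and 49.9 RPKM in dF1, at 7.6 RPKM in dF4 (4.43 to 12.2, about 17 reads) and at 61.7 and 50.9 RPKM in wt. The dF1 and wt libraries overlapped fully, and dF4 was far below them. The dF1 difference was 0.06 on the log2 scale (SE 0.19, 95% interval -0.44 to 0.56, limma adjusted p = 0.962). It turned negative without wt replicate 2 (-0.08) or dF1 replicate 1 (-0.16). The dF4 value was 7.41-fold below the wt mean, a log2(RPKM + 1) difference of -2.73. Tlr7 lies on the X chromosome. In dF1, the library with Xist had the higher Tlr7 value and the library without it the lower one. Replicate 2 was also the lower in wt (61.7 and 50.9 RPKM), where both libraries had Xist. Xist was listed at 0 in dF4, so the dF4 and wt libraries differed in sex as well as genotype. The part that sex plays in these Tlr7 values was not tested.

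The ratio of Tlr7 to Tlr9 within a library does not depend on how libraries were scaled. It was 0.733 and 0.513 in dF1, 0.159 in dF4 (exact 95% binomial interval 0.089 to 0.268, on reads) and 0.809 and 0.597 in wt. The dF4 interval lies below every other library's ratio. In both genotypes with a pair of libraries, replicate 2 had the lower ratio.

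Unc93b1, which delivers the endosomal receptors, kept its place at the top. NM_001161428 was at 418.7 and 373.7 RPKM in dF1, at 285.9 RPKM in dF4 (256 to 317.5) and at 382.6 and 485.4 RPKM in wt. NM_019449 was at 31.4 and 48.9 RPKM in dF1, at 35.9 RPKM in dF4 (26.7 to 47.7) and at 28.9 and 44.2 RPKM in wt. For the first transcript dF4 was lowest, at 1.52-fold below the wt mean, while for the second dF4 lay between the libraries of both other genotypes. NM_019449 took 7.86% and 12.96% of the gene's length-weighted RPKM in dF1, 12.5% in dF4 and 7.91% and 9.39% in wt. This share was higher in replicate 2 than in replicate 1 of both dF1 and wt, and no source used here tells how reads were divided between transcripts of a gene. The dF1 differences were -0.12 (SE 0.19) and 0.13 (SE 0.29) on the log2 scale, with limma adjusted p of 0.912 and 0.945. The first turned positive without wt replicate 2 (0.05), and the second turned negative without wt replicate 1 (-0.17) or dF1 replicate 2 (-0.18).

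Tlr2, the lipoprotein receptor, had the smallest unadjusted p of the 8 member rows tested between dF1 and wt. It was at 9.1 and 10.1 RPKM in dF1, at 11.2 RPKM in dF4 (6.71 to 17.4, about 19 reads) and at 5.2 and 5.8 RPKM in wt. All 3 mutant libraries were above both wt libraries. The dF1 mean was 1.75-fold the wt mean, with a log2 fold change of 0.71 (SE 0.15, 95% interval 0.33 to 1.08). The unadjusted p was 0.00482, in place 145 of 12215 transcripts, and limma's adjusted p was 0.405, so the difference did not pass the correction. It stayed between 0.48 and 0.79 in 13 other settings, with adjusted p between 0.191 and 0.931. Of the cells known for Tlr2, the neutrophil list was below the wt mean in dF1 for 10 of 13 markers (summed level 221.9 and 870.8 RPKM in dF1, 411.2 and 1102 RPKM in wt), while its marker Ctsg was above both wt libraries in both dF1 libraries. The monocyte and macrophage list had 5 of 11 markers above and 5 below the wt mean. Its sum was above both wt libraries in both dF1 libraries (355.6 and 378.7 RPKM in dF1, 352.3 and 327.6 RPKM in wt). Ccr2 carried this difference in the sum (148.3 and 134.9 RPKM in dF1, 121.4 and 46.6 RPKM in wt). Ccr2 and Cd14 were each above both wt libraries in both dF1 libraries. Cd68 (181 and 169.2 RPKM in dF1, 171.4 and 215.9 RPKM in wt) and Lyz2 (9.9 and 37.7 RPKM in dF1, 33.7 and 40.2 RPKM in wt) had lower means in dF1 than in wt. The part of these cells in the Tlr2 difference was not tested.

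Tlr4, the lipopolysaccharide receptor, was at 2.4 and 2 RPKM in dF1, at 9.6 RPKM in dF4 (6 to 14.5, about 22 reads) and at 2.4 and 1.5 RPKM in wt. The dF1 and wt libraries overlapped, and dF4 was above all of them, at 4.92-fold the wt mean. The dF1 difference was 0.13 (SE 0.21, limma adjusted p = 0.916) and turned negative without wt replicate 2 (-0.09). Tlr3, the double-stranded RNA receptor, was at 0.5 and 0.4 RPKM in dF1, at 2.7 RPKM in dF4 (1.09 to 5.58, about 7 reads) and at 0.1 RPKM in both wt libraries. With a mean of 0.76 RPKM it was the one member row left out of the test. Its 3 mutant libraries were above wt, at levels where the table's rounding to 1 decimal weighs heavily. With no filter on level, Tlr3 entered the dF1 fit at an unadjusted p of 0.0041, below the 0.00688 of Tlr2 in that fit, and limma's adjusted p was 0.352 for Tlr3 and 0.496 for Tlr2.

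The adaptors differed little between genotypes. Myd88 was at 49.6 and 48.6 RPKM in dF1, at 40.3 RPKM in dF4 (29.5 to 53.8) and at 45.6 and 44.8 RPKM in wt. Ticam1 was at 12 and 13.5 RPKM in dF1, at 14.2 RPKM in dF4 (9.1 to 21.1) and at 14.4 and 12.5 RPKM in wt. Both dF1 libraries were above both wt libraries for Myd88, but by 1.09-fold only (log2 fold change 0.12, SE 0.11, 95% interval -0.15 to 0.39, limma adjusted p = 0.855). For Ticam1 the libraries overlapped (-0.07, SE 0.14, 95% interval -0.44 to 0.30, adjusted p = 0.939), and its sign turned without wt replicate 1 (0.02) or dF1 replicate 1 (0.01). The wt mean lies inside the dF4 interval for both adaptors.

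**Figure D2:**
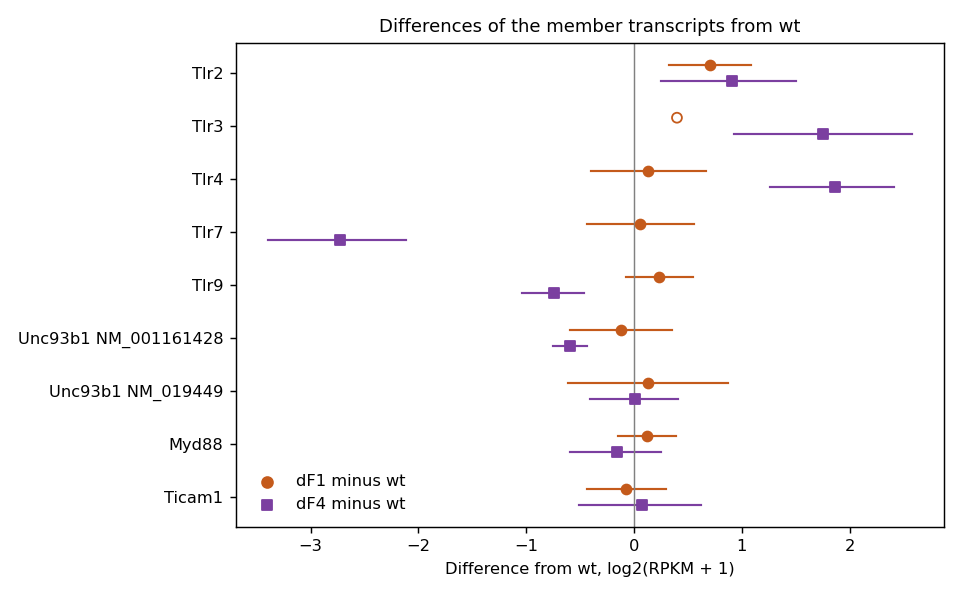
Difference of each member transcript from the wt mean on log2(RPKM + 1), for dF1 (circles, with limma's 95% interval) and dF4 (squares, with the 95% Poisson interval of the dF4 value alone); the open circle is Tlr3, which was not tested. Tlr7 lies at -2.73 in dF4 and at 0.06 in dF1, and Tlr2 lies at 0.71 in dF1 and 0.91 in dF4.

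The dF1 comparison asked whether loss of finger 1 changes these transcripts. Of the 8 member rows tested, 0 passed at a limma adjusted p of 0.05, as did 0% of all 12215 transcripts tested; at an unadjusted p under 0.05 there was 1 member row, Tlr2, against 7.16% of all. The dF1 libraries were both above both wt libraries for 3 tested rows (Tlr2, Tlr9 and Myd88), against 16.8% of all transcripts, and both below for 0, against 17.9%. The median difference of the tested rows was 0.12, and that of all transcripts 0.01. The smallest p an exact permutation test can reach with 2 libraries against 2 is 0.333, so single genes were tested only in the fit across all transcripts.

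The dF4 library was set beside wt with no test, since it has no replicate. A row was counted when dF4 lay outside both wt libraries and at least 1 from their mean on log2(RPKM + 1), the wt libraries differed by no more than 0.5 and all 5 libraries averaged at least 5 RPKM. Among the members 6 rows could be counted, and 1 was, Tlr7, as lower. Over all 7867 transcripts that could be counted 18.2% were, with 10.4% lower and 7.75% higher. Tlr2, at a difference of 0.91, lay just short of the limit on size, and Tlr4 and Tlr3, at 1.86 and 1.75, were below the limit on level. The median difference was -0.08 over the tested member rows and 0.02 over all transcripts tested. The dF1 and dF4 differences share the wt libraries.

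Marker lists of several cell types also differed from wt in the dF4 library. All 10 pDC markers were below the wt mean in dF4, with a summed level of 314.9 RPKM in dF4 and 3303 and 3784 RPKM in wt, 3 of them listed at 0, and Siglech at 5.5 RPKM in dF4 against 936.2 and 838.4 RPKM in wt. All 7 mature B markers in the table were above the wt mean (815.3 RPKM in dF4 and 294 and 336 RPKM in wt), with Ms4a1, which encodes CD20, at 80.9 RPKM in dF4 and 1.6 and 1.2 RPKM in wt. Of the 11 pro-B markers 7 were above the wt mean (898.1 RPKM in dF4 and 633 and 392.1 RPKM in wt). The higher pro-B sum was carried by Cd79b (371.7 RPKM in dF4 and 85.1 and 59.6 RPKM in wt) and Cd79a (149 RPKM in dF4 and 28.2 and 12.7 RPKM in wt). Among the pro-B markers below the wt mean, Dntt was at 14.8 RPKM in dF4 and 238.9 and 152.5 RPKM in wt. All 13 neutrophil markers (34074 RPKM in dF4 and 411.2 and 1102 RPKM in wt) and 9 of 11 monocyte and macrophage markers (1447 RPKM in dF4 and 352.3 and 327.6 RPKM in wt) were above the wt mean as well. Of the 9 conventional dendritic cell markers 6 were below (951.1 RPKM in dF4 and 673.8 and 654 RPKM in wt, the sum being carried by H2-Ab1). All 7 T cell markers (484.2 RPKM in dF4 and 228.6 and 139.6 RPKM in wt) and all 8 erythroid markers (881 RPKM in dF4 and 57.2 and 63.1 RPKM in wt) were above the wt mean, and 7 of 8 NK cell markers were below it (562.5 RPKM in dF4 and 1446 and 657.6 RPKM in wt). The part of these cell types in the member values was not tested.

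Of the 7 other mouse Toll-like receptors, 4 were above the wt mean in dF4 and 3 below it, namely Tlr5, Tlr11 and Tlr12. Both sides held endosomal receptors, and Tlr5 was the only surface receptor below. Tlr11 was at 0.1 RPKM or less in every library. Tlr12, an endosomal receptor for parasite profilin, was at 42.4 and 39.2 RPKM in dF1, at 2.5 RPKM in dF4 (0.857 to 6.16, about 5 reads) and at 35.2 and 48.5 RPKM in wt, and was the one of these receptors with a mean of at least 5 RPKM. It was 16.7-fold below the wt mean in dF4, beyond the 7.41-fold of Tlr7. Tlr1, a partner of Tlr2, was at 0.4 and 0.3 RPKM in dF1, at 11.8 RPKM in dF4 (6.96 to 18.6) and at 0.4 RPKM in both wt libraries. The lipoprotein co-receptor Tlr6 was at 5.8 RPKM in dF4 and between 1 and 1.7 RPKM in the others, and Tlr13, a sensor of bacterial ribosomal RNA, at 8.4 RPKM in dF4 and between 0.2 and 0.5 RPKM elsewhere. Tlr8, an endosomal receptor related to Tlr7, was at 0.1 and 0.4 RPKM in dF1, at 2.1 RPKM in dF4 (0.578 to 5.43, about 4 reads) and at 0.1 and 0.2 RPKM in wt. Tlr5, the flagellin receptor, was at 1.4 and 1.1 RPKM in dF1, at 1 RPKM in dF4 (0.127 to 3.78, about 2 reads) and at 2.2 and 2.3 RPKM in wt. Its dF4 interval covers all the other libraries, and its limma adjusted p in dF1 was 0.589. Summed, the surface receptors Tlr1, Tlr2, Tlr4, Tlr5 and Tlr6 came to 14.6 and 15.2 RPKM in dF1, 39.4 in dF4 and 11.5 and 11 in wt. The 7 endosomal receptors Tlr3, Tlr7, Tlr8, Tlr9, Tlr11, Tlr12 and Tlr13 came to 204.6 and 187.6 RPKM in dF1, 71.1 in dF4 and 173.9 and 185.5 in wt, and nearly all of this was Tlr7, Tlr9 and Tlr12 (203.7 and 186.3 RPKM in dF1, 57.9 in dF4 and 173.2 and 184.6 in wt). The surface receptors thus made up 35.7% of the summed level of all 12 receptors in dF4, and between 5.6% and 7.5% in the other libraries.

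**Figure D3:**
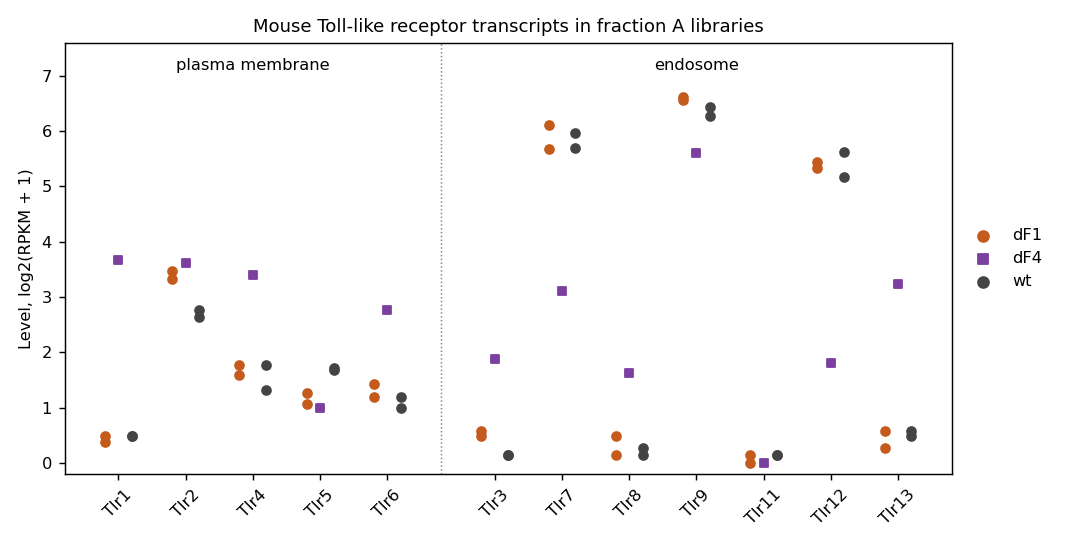
Levels of 12 mouse Toll-like receptor transcripts as log2(RPKM + 1), plasma membrane receptors left and endosomal receptors right, with 1 point per library (dF1 and wt circles, dF4 squares). In dF4, Tlr7 and Tlr12 lie far below the other libraries at 7.6 and 2.5 RPKM, and Tlr5 and Tlr9 less far below them, while Tlr1, Tlr2, Tlr3, Tlr4, Tlr6, Tlr8 and Tlr13 lie above them. The dF4 value of Tlr5 rests on about 2 reads.

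Beyond the members, 78 genes of the pathway in 7 lists were followed, of which 67 were tested. These totals include the list of 7 other Toll-like receptors described above. In dF1, 0 passed at a limma adjusted p of 0.05, and 8 had an unadjusted p under 0.05, which is 11.9% beside 7.16% of all transcripts tested. Tlr5 was among these 8. Cd14, which hands lipopolysaccharide to Tlr4, was at 1.6 and 2.5 RPKM in dF1, at 27.5 RPKM in dF4 and at 0.3 and 0.7 RPKM in wt, with a dF1 adjusted p of 0.449. Irf7, the interferon regulatory factor that Myd88 activates in pDCs, was at 340.4 and 205.6 RPKM in dF1, at 36.1 RPKM in dF4 and at 133.3 and 170.4 RPKM in wt (dF1 adjusted p = 0.662). For both, the dF1 libraries lay above the wt libraries, as they did for 16.8% of all transcripts, without passing the test.

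In dF4, 14 of the 50 pathway genes that could be counted were, 6 higher and 8 lower, which is 28% beside 18.2% of all transcripts. The receptor Tlr12 was among the lower ones. Of the higher genes, Cd14 reached the limit on level only through its dF4 value. The endolysosomal enzymes held 3 of the lower genes and no higher one, of 7 that could be counted. Among all transcripts that could be counted, 10.4% were lower and 7.75% higher. Ctsl, an endosomal protease that can cleave Tlr9, was at 305 and 222.1 RPKM in dF1, at 7.6 RPKM in dF4 and at 314.6 and 323.5 RPKM in wt. The protease Ctsb was at 132.4 RPKM in dF4 and 556.3 and 511.6 RPKM in wt, and Pld4, an exonuclease that degrades Tlr9 ligands, at 158.1 RPKM in dF4 and 588.4 and 740.5 RPKM in wt. Pld3, a related exonuclease, was at 49.1 RPKM in dF4 and 32.2 and 22.7 RPKM in wt and was not counted.

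The helper genes of the receptors were mixed in dF4. Of 8 helper genes that could be counted 2 were lower, namely Cd180, a Toll-like receptor relative found on B cells (63.4 RPKM in dF4 and 144.8 and 140.1 RPKM in wt) and its partner Ly86 (90.4 RPKM in dF4 and 241.2 and 212.9 RPKM in wt), and Cd14 was higher. Cd14 reached the limit on level only through its dF4 value of 27.5 RPKM, with at most 2.5 RPKM in the other libraries. Over all transcripts that could be counted 10.4% were lower and 7.75% higher. Slc15a4, an endosomal transporter that pDCs need for Tlr7 and Tlr9 responses, was at 55.2 and 49.5 RPKM in dF1, at 24.1 RPKM in dF4 and at 44.2 and 44.7 RPKM in wt, short of the size limit. Among the other adaptors 0 of 3 were counted, with Pik3ap1 at 84.7 RPKM in dF4 and 140.9 and 162.9 RPKM in wt, Ticam2, the bridging adaptor of Tlr4, at 8.2 RPKM in dF4 and 6 and 6.6 RPKM in wt, and the inhibitor Tollip at 32.1 RPKM in dF4 and 28.5 and 28.4 RPKM in wt. Tirap, the bridging adaptor of Tlr2 and Tlr4, was below the limit on level, at 10.9 RPKM in dF4 and 3.4 and 2.6 RPKM in wt. Of the helpers below that limit, Lbp was at 15.2 RPKM in dF4 and 0.4 and 1 RPKM in wt. Ly96 was listed at 0 in dF4 (0 to 11.2), an interval that covers its 4.7 and 3.7 RPKM in wt.

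Of 16 kinases and ubiquitin ligases that could be counted, 1 was, Ikbke, a kinase of the interferon pathway, at 36.5 RPKM in dF4 and 14.7 and 15.6 RPKM in wt. It was higher, as were 7.75% of all transcripts that could be counted. The ubiquitin ligase Traf6 was at 7.3 RPKM in dF4 and 16.7 and 13.3 RPKM in wt, and the kinases Irak2 (4.4 RPKM in dF4 and 8.9 and 7.9 RPKM in wt) and Map3k7 (8.4 RPKM in dF4 and 14.8 and 13.4 RPKM in wt) were also short of the limit. Irak3, an inhibitory member of the kinase family, was below the limit on level, at 15.7 RPKM in dF4 and 1 RPKM in both wt libraries. Of 13 transcription factors and inhibitors 3 were higher and 2 lower, beside 7.75% and 10.4% of all transcripts. Irf8, a factor that pDCs and B cells express, was at 1020 and 1360 RPKM in dF1, at 215.8 RPKM in dF4 and at 1190 and 1317 RPKM in wt, and Irf7 was the other lower one. Nfkb2, an NF-kB subunit, was at 52.2 RPKM in dF4 and 17.2 and 19.7 RPKM in wt, and the NF-kB inhibitor Nfkbia at 101.8 RPKM in dF4 and 48.9 and 35.7 RPKM in wt. The remaining higher one was Relb, another NF-kB subunit, at 21.2 RPKM in dF4 and 8.5 and 10.3 RPKM in wt.

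Of the 14 cytokine genes that the pathway induces, 7 reached the level tested and the rest were near 0. The highest was the chemokine Ccl5, at 896.3 and 769.8 RPKM in dF1, at 320.1 RPKM in dF4 and at 612.1 and 354.5 RPKM in wt. Its dF1 libraries were both above the wt libraries, as for 16.8% of all transcripts, without passing the test (limma adjusted p = 0.677). Tnf was at 7.1 and 4.6 RPKM in dF1, at 10.3 RPKM in dF4 and at 4.7 and 3.7 RPKM in wt. It was the one counted as higher in dF4 of 2 that could be, beside 7.75% of all transcripts. The inflammatory cytokine Il1b was at 41.3 RPKM in dF4 and 1.1 and 2.4 RPKM in wt, with wt libraries too far apart to be counted. The chemokines Ccl3 (4.8 RPKM in dF4 and 28.9 and 16.9 RPKM in wt) and Ccl4 (7.2 RPKM in dF4 and 26.6 and 12.7 RPKM in wt) had lower values in dF4, again with wt libraries far apart. In dF4, Ccl3 rested on about 2 reads (0.512 to 15.3 RPKM) and Ccl4 on about 3 (1.56 to 22.2 RPKM). The Ccl4 interval covers wt replicate 2.

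**Figure D4:**
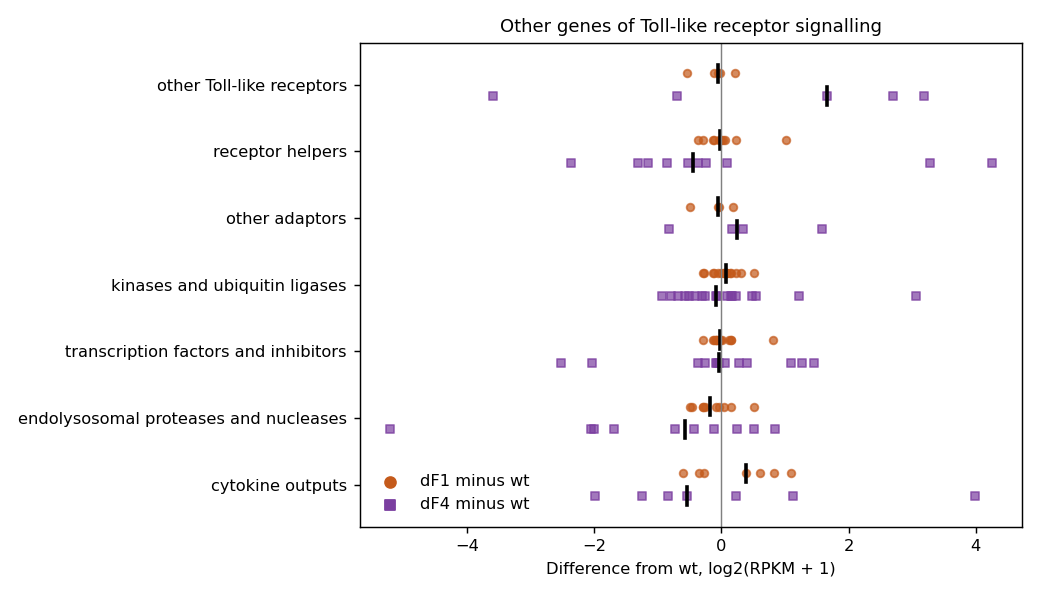
Difference from the wt mean on log2(RPKM + 1) of the tested genes in 7 pathway lists, 1 point per gene, for dF1 (circles) and dF4 (squares), with black bars at the list median. The dF1 points stay between -0.60 and 1.10, and the dF4 points spread more widely, with the endolysosomal enzymes reaching -5.22 (Ctsl).

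Transcripts whose levels over the 5 libraries were most like a member's were sought among 8180 others with a mean of at least 5 RPKM, by the root mean square difference of profiles centred on wt, on the log2(RPKM + 1) scale. For Tlr7 they were Grm8 (0.11), Rilpl1 (0.11) and Hspb11 (0.12), of which Grm8 and Hspb11 were listed at 0 in dF4 and Rilpl1 was at 2.2 RPKM in dF4 and 20.6 and 16 RPKM in wt. For Tlr9 they were Bmpr2 (0.05), Gnaq (0.06) and Noc4l (0.06), each lowest in dF4 and highest in the dF1 libraries. For Tlr2 the closest was Soat1 (0.07), at 7.4 and 8.9 RPKM in dF1, at 9.4 RPKM in dF4 and at 4.8 RPKM in both wt libraries. For Unc93b1 NM_001161428 it was Rgp1 (0.03), for NM_019449 Zfp865 (0.09), for Myd88 Madd (0.02) and for Ticam1 Supt7l (0.02).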

How the data were processed

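RNA levels of 5 libraries were taken from 1 table of RPKM per RefSeq transcript, which the authors deposited to 1 decimal, per the file headers. TopHat and bedtools, with no version, and the build mm9 come from the submitters' processing notes. Strand use, aligner settings and read sharing among transcripts were not given in the sources used here. Overlapping transcripts therefore cannot be separated. The table gives no positions. One line without a gene was left out, and 0 columns of samples stayed unused.

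Differences were taken on log2(RPKM + 1), a scale that shrinks changes at low levels. The test of dF1 against wt was two-sided and used limma 3.58.1 (R 4.3.3; eBayes with a trend, Benjamini-Hochberg) on the 12215 transcripts that averaged 1 RPKM or more across all 5 libraries, and the procedure was tested on simulated data. The dF4 library's depth came from its low values, 82.9% of 2298 of which were whole reads within 0.1 read; the step was not resolved in the other libraries.

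The members and lists were chosen with earlier results of these data known. One marker of the pro-B list is not reported here, and Igll1 was named after its values were seen. A gene of a list entered by its transcript with the highest mean. From each list, up to 4 genes with a mean of at least 5 RPKM and the largest dF4 difference are named. The receptors Tlr1, Tlr5, Tlr6, Tlr8, Tlr11 and Tlr13 were named after their values were seen. So were Tirap, Irak3, the helpers Lbp and Ly96, the factor Relb and the chemokine Ccl5. So were the markers Ctsg, Ccr2, Cd68, Lyz2, Cd79a, Cd79b and Dntt. Alternatives were other pseudocounts, filters and scalings, robust variances, a neutrophil covariate, a replicate block and leaving out libraries.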

Additional observations from a re-analysis of the deposited data

How the results depend on the processing

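For dF1, the count of called transcripts was 0 with limma and 0 in each fit without 1 library, and 875 had an unadjusted p under 0.05. It was 245 with no filter, 25 with the filter at 5 RPKM and 33 with robust variances; the cause was not tested. No member row was called in any of the 13 settings. Tlr2, Tlr9 and Myd88 stayed positive in dF1 throughout. With the neutrophil covariate the Tlr7 difference was -0.049. Leaving out each of the 4 libraries in turn gave -0.16 to 0.28 for Tlr7, -0.09 to 0.35 for Tlr4, -0.295 to 0.048 for Unc93b1 NM_001161428, -0.18 to 0.44 for NM_019449 and -0.166 to 0.024 for Ticam1. Same-numbered libraries deviated together across transcripts (correlation 0.305), but with 2 numbers this does not show pairing, and the replicate block called 0 transcripts, with Tlr2 at 0.71 (adjusted p = 0.334). For dF4, the transcripts counted by size were 1428 and became 2595 with the level limit at 1 RPKM. The members counted were then 2, with Tlr4 added as higher, and also 2 with a pseudocount of 0.1, which added Tlr2 as higher. Tlr7 was counted as lower in every setting, between -2.87 and -2.28, and Tlr9 stayed between -0.82 and -0.66. The dF4 intervals limit what its low values, such as Tlr3, can show.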
